A study of Homo sapiens with 6 samples.

Results

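The genes described here encode 47 factors of ribosome production. Among them are RNA polymerase I subunits and its initiation factor, core proteins of small nucleolar ribonucleoproteins and abundant nucleolar proteins. Others are assembly factors of the small and large ribosomal subunits. The 47 genes were chosen by gene name, with earlier results of these data known. All 47 names had a row among the 23619 genes of the table that the authors deposited. All libraries came from T24, an established line of human bladder cancer cells labelled as genotype WT. RNA-seq was made from 3 control libraries, whose cells were labelled as having no treatment, and from 3 libraries of cells given Caba-780 at 3.84 µM for 24 h. The labels name no vehicle for the controls and leave unsaid whether each replicate had its own culture. The p-values cover differences among these libraries, possibly technical ones. The series sets the expression profile of the treated cells against that of the controls.

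Ribosomes are made mainly in the nucleolus, where RNA polymerase I transcribes the precursor of most ribosomal RNA. Small nucleolar ribonucleoproteins modify that precursor, the small subunit processome cuts and folds it, and separate sets of assembly factors carry the pre-ribosomal particles to the cytoplasm. Many genes of this programme are known targets of the transcription factor MYC, and high ribosome production is a common trait of cancer cells.

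The libraries held between 14591234 and 15983035 reads assigned to genes. Control replicate 3 was unlike the rest: 13627 genes had at least 1 read in it, against 19467 to 20308 genes elsewhere, and only 638 of its genes had 1 to 9 reads, against 5636 to 6100. It lay outside the range of the other 5 libraries in 34 of the 47 members, above it in 14 and below it in 20, which is 72.3% of members against 77.6% of all genes tested. The member deviations of control replicate 3 from controls 1 and 2 ran with gene length. Spearman's rho was 0.45 over the 47 members and 0.26 over all genes tested, a description over genes that share libraries. The counts over all members, the medians by role and the changes of called members are therefore given with and without that library. The log2 changes without control replicate 3 also ran with gene length (rho = 0.28 over the members and 0.18 over all genes tested). The part of gene length in the results below was not tested. Of the epithelial markers, KRT7, KRT8 and KRT18 were present, with up to 34.6, 77.6 and 101 RPKM, reads scaled to gene length and library total. EPCAM, CDH1, GATA3, UPK1A and UPK2, defining markers of epithelium or urothelium, were all under 1 RPKM in every library, and UPK1B had 3.46 to 6.02 RPKM. EPCAM had 38.3 normalized counts in control replicate 3 and 0 in every other library. GATA3 was also highest in control replicate 3, at 14.7, while CDH1, UPK1A and UPK2 had 0 there. UPK1B had 197, 165 and 224 normalized counts in the controls and 116, 137 and 113 with Caba-780, wholly below, and it fell by 0.57 ± 0.21 on the log2 scale without control replicate 3 (limma adjusted p = 0.0365), against -0.67 ± 0.23 with it (adjusted p = 0.224). PECAM1, CDH5 and DCN, markers of endothelium and fibroblasts, were near 0. COL1A1, a fibroblast marker, had 485, 321 and 242 normalized counts in the controls and 225, 118 and 203 with Caba-780, and it fell by 1.17 ± 0.24 on the log2 scale without control replicate 3 (limma adjusted p = 0.00143), against -0.93 ± 0.37 with it (adjusted p = 0.272). Of the other epithelial or urothelial markers, KRT7, KRT8, KRT18 and PPARG changed by 0.24, -0.00148, 0.25 and 0.15 without control replicate 3. With all 6 libraries they changed by 0.71, 0.34, 0.20 and 0.21, and none of them was called in either fit. The part of UPK1B and COL1A1 in the results below was not tested. The data are from bulk RNA, so fewer cells of a kind and less RNA per cell cannot be told apart.

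With control replicate 3 left out, 12 of the 47 members were higher with Caba-780, 4 were lower and 31 did not pass the test. The 12 were RRN3, NOP56, DDX21, UTP4, UTP14A, WDR75, RRP8, GNL2, GNL3, NMD3, TSR1 and RRP12, and the 4 were NHP2, NCL, NPM1 and RRS1. The test was limma on log2(normalized count + 1), with a Benjamini-Hochberg adjusted p under 0.05 over all 13708 genes tested, and all 47 members passed the filter on low values. Members were called higher in 25.5% of cases against a background of 17.2% of all genes, and lower in 8.51% against 15.2%. Their median log2 change was 0.22, against -0.02 for all genes, and 31 of 47 changes (66.0%) were above 0, against 48.4% of all genes. When the libraries were scaled to their total reads instead, which moved the median of all genes from -0.02 to 0.08, 19 members were higher and 1 lower, against a background of 21.4% and 9.62%.

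With all 6 libraries, RRP12 was the only member called higher and none was called lower, against 0.744% and 0.26% of the 13847 genes tested. The members' median was 0.24, against 0.10 for all genes, and 9 members (19.1%) had an unadjusted limma p under 0.05, against 17.0% of all genes. DESeq2 on the reads recovered from the table called 4 members higher, RRP12, UTP14A, UTP4 and NOP56, and none lower, against 5.26% and 3.57% of genes. In the authors' deposited table, UTP14A and RRP12 were the members with an adjusted p under 0.05, both higher, against 2.35% of its genes higher and 1.2% lower. Without any test, the Caba-780 libraries lay wholly above all 3 controls in 15 members and wholly below them in 4, against 17.9% and 13.4% of genes. Against controls 1 and 2 alone these counts were 22 and 10, with backgrounds of 28% and 28.4%.

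**Figure D1:**
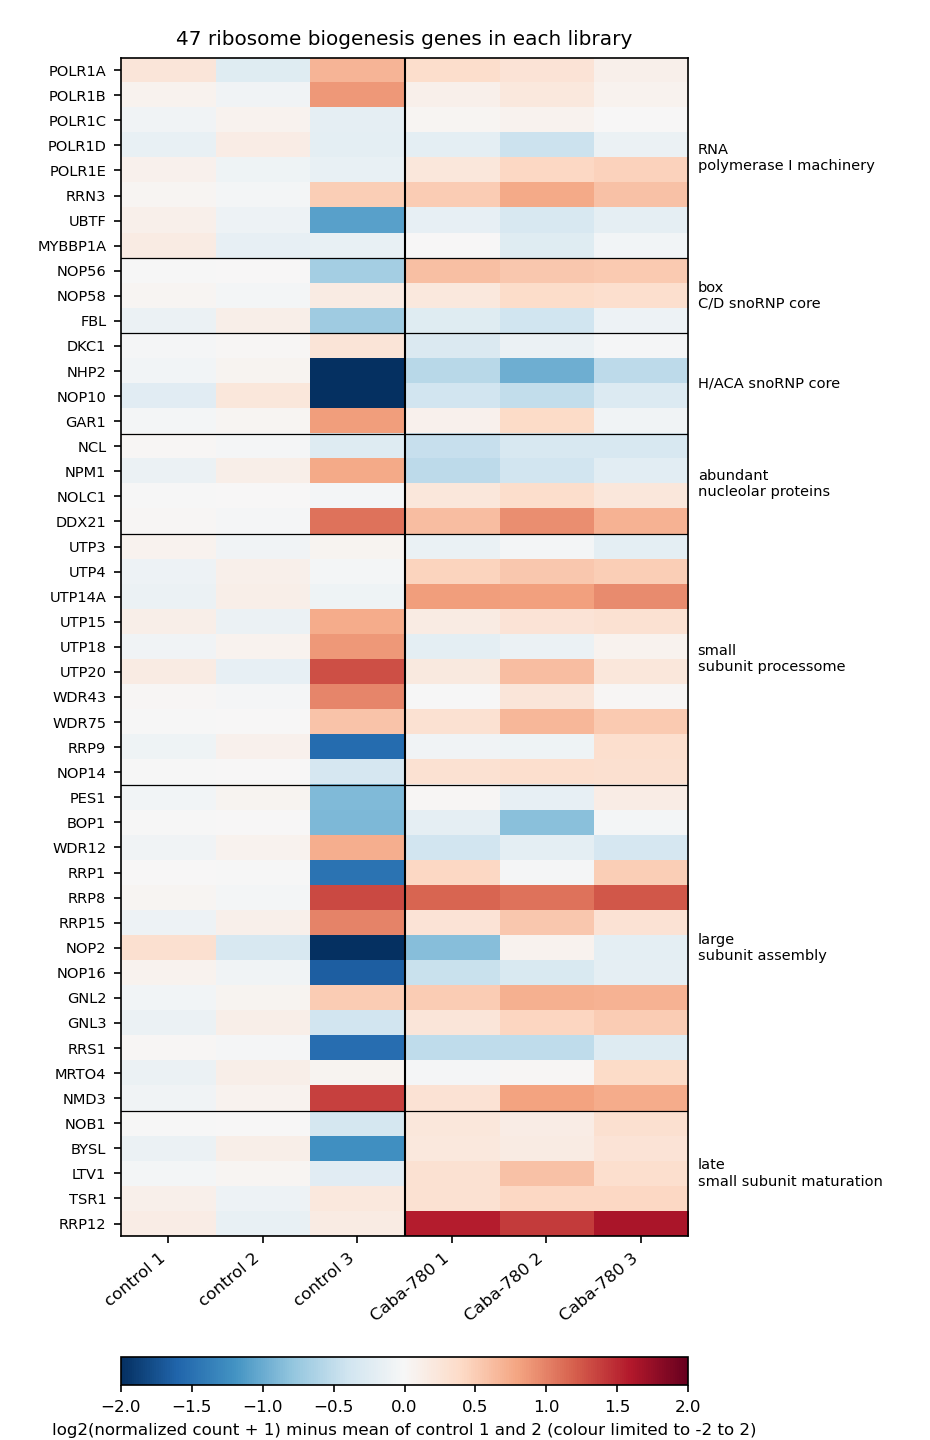
Heat map of the 47 members (rows, by role) in the 6 libraries (columns), coloured by log2 of the normalized count against the mean of controls 1 and 2. Control replicate 3 departs from its group in both directions, while the 3 Caba-780 libraries resemble each other, with medians over the members of 0.17, 0.22 and 0.23.

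**Figure D2:**
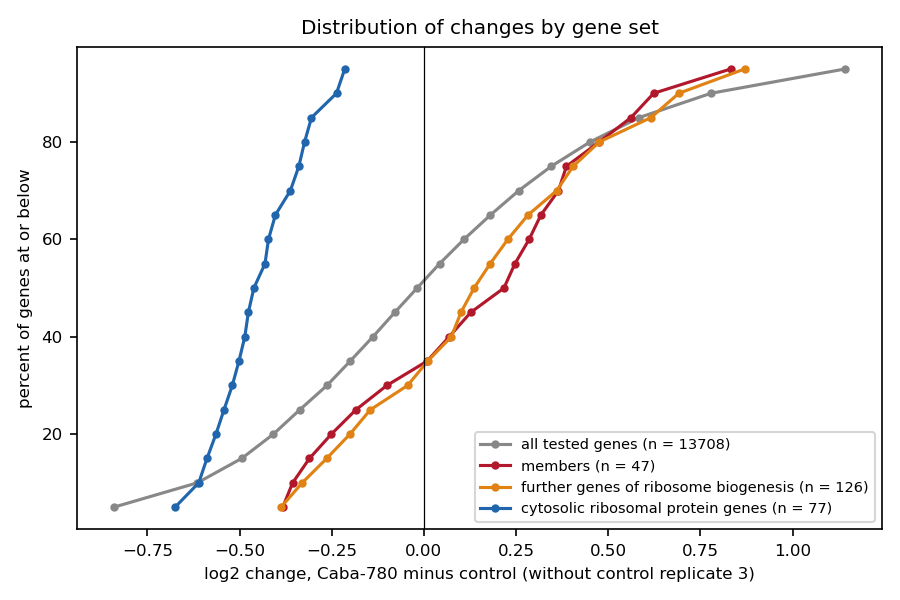
Percent of genes (vertical axis) at or below each log2 change (horizontal axis), Caba-780 against controls 1 and 2, drawn at percentiles in steps of 5 for the members, the further genes of ribosome biogenesis, the genes of cytosolic ribosomal proteins and all genes tested. The medians are 0.22, 0.14, -0.46 and -0.02 in that order.

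Levels of the members differed widely. Per gene length, the mean over the 6 libraries was highest for NPM1 at 298 RPKM, NCL at 112 RPKM and DDX21 at 92.2 RPKM. It was lowest for NOP2 at 0.183 RPKM, RRP8 at 5.48 RPKM and POLR1C at 6.01 RPKM. NOP2, a methyltransferase of the large subunit ribosomal RNA, had 21.3, 13.4 and 0 normalized counts in controls 1, 2 and 3 and 8.96, 17.9 and 14.7 with Caba-780. These are a few reads per library, and 54.4% of the exon bases of NOP2 overlap AC006064.6 on the same strand, a gene not analysed here, so the level of NOP2 is uncertain. Together the members took 0.578%, 0.587% and 0.638% of the reads of the controls and 0.629%, 0.658% and 0.682% with Caba-780.

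Promoters were read from RefSeq (GRCh38.p14), as the 250 bases before to 50 bases after each start, for the 41 members with an entry. NOP58, NOLC1, BOP1, POLR1E, RRP12 and RRS1 had none. The E-box CACGTG, a palindrome and so the same on both strands, was in the promoters of 19 of the 41 members (46.3%). It was in 7.26% of all 35116 promoters and in 12.5% of the 9549 tested protein-coding genes with an entry. The share was 70.0% among small subunit processome members (7 of 10), 22.1% among the further genes of ribosome biogenesis (23 of 104) and 6.45% among genes of cytosolic ribosomal proteins (4 of 62). The 19 members held 21 matches with a median first base at +5 from the start, and 18 members had a match within 150 bases before to 50 after it. Members with the E-box were 5 of the 11 called higher with an entry, none of the 3 called lower and 14 of the 27 not called. A match is a description of these letters and not a bound site. The 30 bases around the E-box (capitals, coding strand, 5′ to 3′) are shown for the 5 carriers called higher and then for 4 carriers not called whose match lies close to the start.
DDX21 (called higher, chr10:68956604-68956633, + strand): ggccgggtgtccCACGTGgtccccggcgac
GNL2 (called higher, chr1:37595917-37595946, - strand): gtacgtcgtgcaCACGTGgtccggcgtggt
GNL3 (called higher, chr3:52686026-52686055, + strand): ggcttcagttcaCACGTGgcgccagcggag
UTP14A (called higher, chrX:129905914-129905943, + strand): accttgggcCACGTGgaaaccaggggccag
UTP4 (called higher, chr16:69132621-69132650, + strand): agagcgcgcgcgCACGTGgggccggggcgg
WDR43 (not called, chr2:28894658-28894687, + strand): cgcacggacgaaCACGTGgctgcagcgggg
RRP9 (not called, chr3:51941892-51941921, - strand): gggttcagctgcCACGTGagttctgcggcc
UTP18 (not called, chr17:51260538-51260567, + strand): gcagcgaggttcCACGTGagcgcctgcgtt
FBL (not called, chr19:39846356-39846385, - strand): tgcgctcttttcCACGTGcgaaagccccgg

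**Figure D3:**
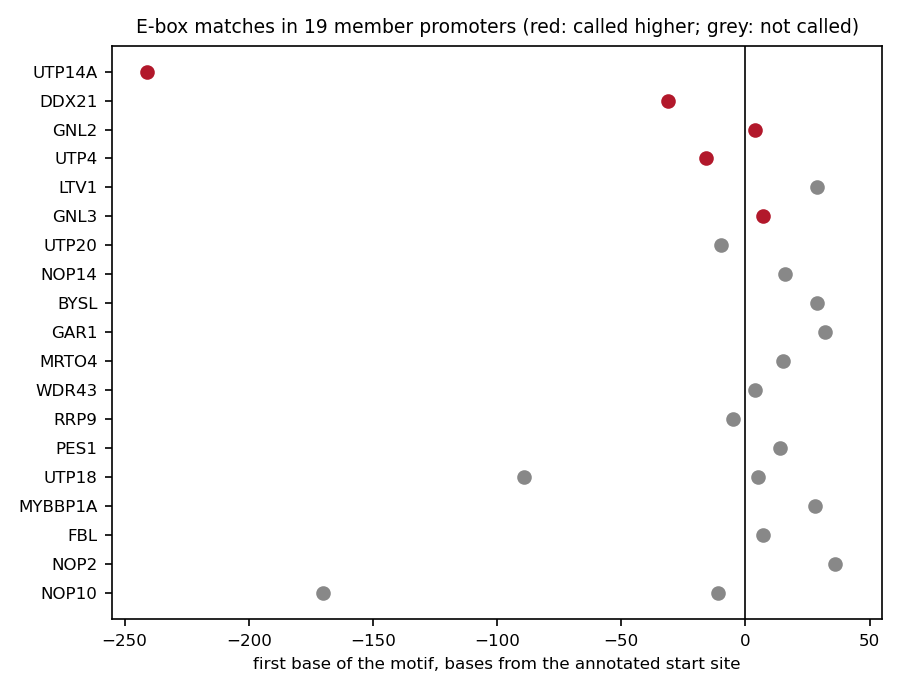
Position of each E-box match (horizontal axis, bases from the RefSeq start) in the 19 members that hold one, ordered by log2 change without control replicate 3 and coloured by call. In 18 members a match lies within 150 bases before to 50 after the start, and the match of UTP14A at -241 is the farthest.

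Other promoter motifs were also searched on both strands. The GC box GGGCGG was in 32 of the 41 members (78.0%), against 78.6% of tested protein-coding genes and 45.0% of all promoters. The TATA box TATAAA was in 2 members (4.88%), against 7.97% of tested genes and 11.5% of all promoters. The palindromic motif of the factor NRF1 was in 4 members (9.76%), against 2.81% of tested genes and 1.24% of all promoters. The 250 bases before the start are shown for 3 members that rose by the largest amounts among those with an entry, RRP8, UTP14A and DDX21, and for NHP2, which fell by the largest amount. Capitals mark CACGTG or the GC box on either strand, and the pair of GC boxes of RRP8 overlap by 1 base.
RRP8 (chr11:6603617-6603866, - strand): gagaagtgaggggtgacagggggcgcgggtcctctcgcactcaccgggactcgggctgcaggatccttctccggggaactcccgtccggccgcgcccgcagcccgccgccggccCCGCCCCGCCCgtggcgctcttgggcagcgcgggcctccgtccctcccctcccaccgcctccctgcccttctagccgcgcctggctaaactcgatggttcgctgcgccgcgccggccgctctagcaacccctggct
UTP14A (chrX:129905914-129906163, + strand): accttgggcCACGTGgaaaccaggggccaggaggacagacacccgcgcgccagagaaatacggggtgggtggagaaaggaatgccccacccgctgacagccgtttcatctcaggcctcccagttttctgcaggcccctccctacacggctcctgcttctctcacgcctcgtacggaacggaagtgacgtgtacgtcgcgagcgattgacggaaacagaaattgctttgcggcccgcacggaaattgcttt
DDX21 (the RefSeq start nearest to that of the deposited table, chr10:68955920-68956169, + strand): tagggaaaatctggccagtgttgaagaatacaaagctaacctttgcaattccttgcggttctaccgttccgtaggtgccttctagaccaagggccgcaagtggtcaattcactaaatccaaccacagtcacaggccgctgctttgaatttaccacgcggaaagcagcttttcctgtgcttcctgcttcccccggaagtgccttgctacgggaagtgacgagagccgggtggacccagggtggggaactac
NHP2 (chr5:178153886-178154135, - strand): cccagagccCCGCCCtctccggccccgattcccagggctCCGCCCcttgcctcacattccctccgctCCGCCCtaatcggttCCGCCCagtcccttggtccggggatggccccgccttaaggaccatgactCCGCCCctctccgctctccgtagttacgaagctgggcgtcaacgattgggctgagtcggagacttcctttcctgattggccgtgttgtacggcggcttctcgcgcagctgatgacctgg
These 4 promoters differ in letters: NHP2 holds 5 GC boxes, RRP8 holds 2, and neither UTP14A nor this start of DDX21 holds one. The E-box of DDX21 shown above belongs to its other RefSeq start.

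Of the 8 members of the RNA polymerase I machinery, 1 (12.5%) was higher and none lower without control replicate 3, near the background of 17.2% higher over all genes. Their median log2 change was 0.08 without that library and 0.06 with it. RRN3 (ENSG00000085721, GRCh38 chromosome 16, 15060022 to 15094317) is the initiation factor that joins RNA polymerase I to its promoter. Its normalized counts were 1209, 1135 and 1656 in controls 1, 2 and 3 and 1670, 1973 and 1752 with Caba-780. Every treated library lay above every control, although control replicate 3 came close. RRN3 rose by 0.61 ± 0.14 (log2, SE) without control replicate 3 (limma adjusted p = 0.00131), and the change was 0.45 ± 0.20 with it (adjusted p = 0.328). GENCODE names 3 copies of RRN3 (RRN3P1, RRN3P2 and RRN3P3), so its reads may be split.

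The 5 subunits of the polymerase were not called in either fit. POLR1E, a subunit of its own, had 987, 867 and 830 normalized counts in the controls and 1078, 1232 and 1271 with Caba-780. Its treated libraries all lay above the controls, and its log2 change of 0.36 missed the threshold without control replicate 3 (limma adjusted p = 0.0542). It passed there under library totals, TMM scaling and DESeq2 (adjusted p = 0.0164, 0.0477 and 0.0434). POLR1D, a subunit shared with RNA polymerase III, had 1137, 1387 and 1097 in the controls and 1092, 931 and 1153 with Caba-780. Its groups overlapped, with Caba-780 replicate 3 above control replicate 1, and the change without control replicate 3 was -0.25 (adjusted p = 0.2). POLR1C, also shared between these polymerases, had 479, 529 and 442 in the controls and 517, 527 and 507 with Caba-780, within the range of controls 1 and 2. Its change was 0.04 ± 0.15 without control replicate 3 (adjusted p = 0.873). The catalytic subunits POLR1A and POLR1B, the architectural activator UBTF and the nucleolar MYBBP1A ran from -0.22 to 0.25.

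The members include 3 core proteins of box C/D particles, which guide methylation of ribosomal RNA. Of them, 1 was higher and none lower without control replicate 3, against 17.2% and 15.2% of all genes. Their median log2 change was 0.31 without that library and 0.25 with it. NOP56 (ENSG00000101361, GRCh38 chromosome 20, 2652145 to 2658393) had 2992, 3052 and 1890 normalized counts in the controls and 4596, 4384 and 4349 with Caba-780. All 3 treated libraries were far above all 3 controls, with control replicate 3 the lowest. NOP56 rose by 0.56 ± 0.13 without that library (limma adjusted p = 0.00177), and the change was 0.78 ± 0.22 with it (adjusted p = 0.179). NOP58, its partner in the particle, had 1794, 1699 and 1963 in the controls and 2024, 2263 and 2199 with Caba-780. The groups did not overlap, and the change of 0.31 was not called (adjusted p = 0.0815). FBL, the methyltransferase fibrillarin, changed by -0.25 without passing (adjusted p = 0.191).

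The 4 core proteins of H/ACA particles, which guide pseudouridylation, are also parts of telomerase. Of them, 1 was lower and none higher without control replicate 3, against 15.2% and 17.2% of all genes. Their median was -0.27 without that library and -0.08 with it. NHP2 (ENSG00000145912, GRCh38 chromosome 5, 178149460 to 178153967) had 1223, 1316 and 316 normalized counts in the controls and 861, 644 and 879 with Caba-780. The treated libraries lay below controls 1 and 2 and above control replicate 3. NHP2 fell by 0.69 ± 0.15 on the log2 scale without control replicate 3 (limma adjusted p = 0.00116), and the change with it was -0.02 ± 0.56 (adjusted p = 0.988). Of its exon bases, 27.4% overlap RMND5B on the opposite strand, and the strand setting of the counting is not given in the sources used here.

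NOP10 had the same order of libraries as NHP2. Its normalized counts were 759, 1045 and 191 in the controls and 679, 632 and 737 with Caba-780. The change was -0.39 without control replicate 3 (limma adjusted p = 0.0594) and 0.35 with it. DKC1, the pseudouridine synthase dyskerin, and GAR1 changed by -0.15 and 0.14 without passing the test.

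The 4 abundant nucleolar proteins went in both directions. Without control replicate 3, DDX21 was higher and NCL and NPM1 were lower, against 17.2% higher and 15.2% lower over all genes. The median of the 4 was -0.05 without that library and -0.000829 with it. DDX21 (ENSG00000165732, GRCh38 chromosome 10, 68956128 to 68985073) is an RNA helicase of the nucleolus. It had 4604, 4479 and 9658 normalized counts in the controls and 6958, 8673 and 7371 with Caba-780. The treated libraries lay above controls 1 and 2 and below control replicate 3, the highest of all. DDX21 rose by 0.75 ± 0.14 without that library (limma adjusted p = 0.000123), against 0.39 ± 0.32 with it (adjusted p = 0.568).

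NCL (ENSG00000115053, GRCh38 chromosome 2, 231453531 to 231483641), nucleolin, binds nascent ribosomal RNA. Its normalized counts were 13821, 13305 and 11388 in the controls and 9868, 10841 and 10866 with Caba-780. All treated libraries were below all controls. NCL fell by 0.37 ± 0.13 on the log2 scale without control replicate 3 (limma adjusted p = 0.0341), and the change was -0.28 ± 0.15 with it (adjusted p = 0.394). NPM1 (ENSG00000181163, GRCh38 chromosome 5, 171387116 to 171411137), nucleophosmin, is a histone and ribosomal protein chaperone. Its normalized counts were 15905, 18883 and 29296 in the controls and 12016, 13269 and 14908 with Caba-780. The groups did not overlap, and control replicate 3 was far above the rest. NPM1 fell by 0.38 ± 0.14 without that library (limma adjusted p = 0.0394), while edgeR put it just over the threshold (adjusted p = 0.0521), and the change with all libraries was -0.63 ± 0.25 (limma adjusted p = 0.281). GENCODE names 45 copies of NPM1, so its reads may be split. NOLC1, a chaperone of small nucleolar ribonucleoproteins, changed by 0.27 without passing.

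The small subunit processome, the large particle that forms on the nascent precursor, held 10 members. Of these, 3 were higher and none lower without control replicate 3, against 17.2% and 15.2% of all genes. Their median was 0.28 without that library and 0.15 with it. UTP14A (ENSG00000156697, GRCh38 chromosome X, 129906121 to 129929761) is a processome component whose yeast counterpart activates a helicase of the particle. It had 590, 687 and 601 normalized counts in the controls, 626 ± 53 (mean ± SD, n = 3), and 1135, 1129 and 1230 with Caba-780, 1164 ± 57 (n = 3). Every treated library was far above every control, control replicate 3 included, a ratio of means of 1.86. UTP14A rose by 0.87 ± 0.14 without control replicate 3 (limma adjusted p = 4.32e-05), and the change with all libraries was 0.90 ± 0.16 (adjusted p = 0.0748). The authors' deposited table gives it a log2 change of 0.90 and an adjusted p of 0.00263. Its near copy UTP14C had 116 to 349 reads per library, highest in control replicate 3, so reads of the pair may be split.

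UTP4 and WDR75 belong to the processome part that binds the start of the precursor first. UTP4 (ENSG00000141076, GRCh38 chromosome 16, 69131291 to 69231130) had 1678, 1919 and 1742 normalized counts in the controls and 2439, 2620 and 2536 with Caba-780. The groups were well apart in all libraries. UTP4 rose by 0.50 ± 0.13 without control replicate 3 (limma adjusted p = 0.006) and changed by 0.51 ± 0.15 with it (limma adjusted p = 0.185, DESeq2 adjusted p = 0.00846). WDR75 (ENSG00000115368, GRCh38 chromosome 2, 189441433 to 189475565) had 918, 919 and 1362 in the controls and 1128, 1454 and 1315 with Caba-780. Control replicate 3 lay among the treated libraries, and the other controls lay below them. WDR75 rose by 0.49 ± 0.15 without control replicate 3 (limma adjusted p = 0.0111), against 0.30 ± 0.23 with it (adjusted p = 0.529). The other 7 processome members, UTP3, UTP15, UTP18, UTP20, WDR43, RRP9 and NOP14, ran from -0.12 to 0.35, and none passed.

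**Figure D4:**
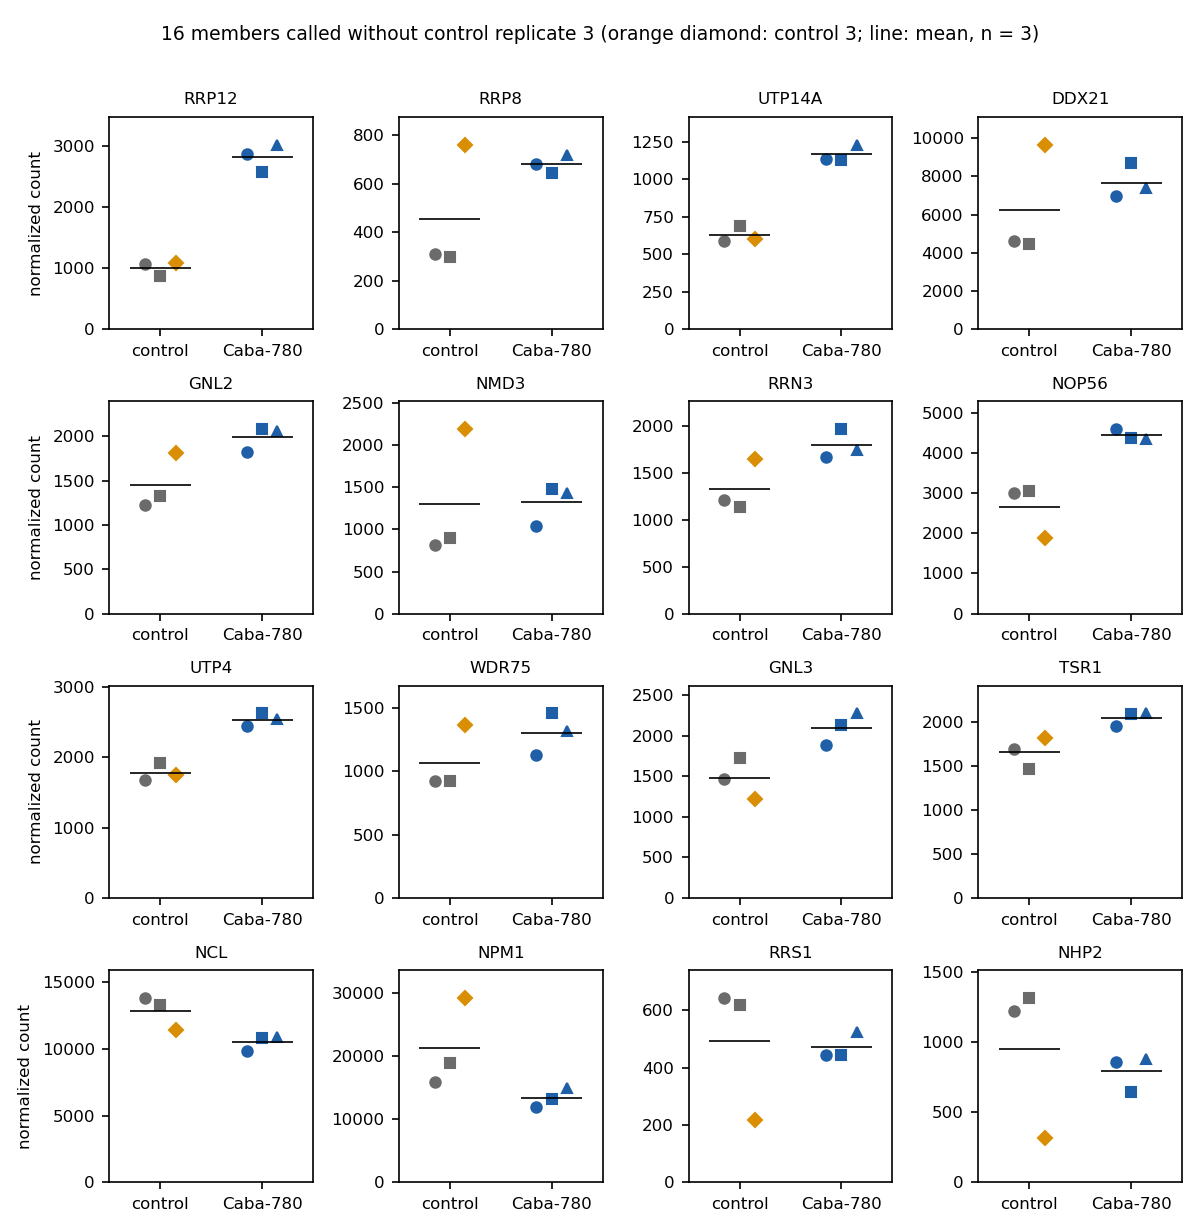
Normalized counts (vertical axes, a scale for each panel) of the 16 members called without control replicate 3, with a point for each library in the control and Caba-780 groups and control replicate 3 marked apart. RRP12, UTP14A, UTP4 and NOP56 show separated groups with every library, while in RRP8, DDX21, NMD3, WDR75, RRS1 and NHP2 control replicate 3 lies among the treated libraries or beyond them.

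Large subunit assembly held 13 members, of which 4 (30.8%) were higher and 1 (7.69%) lower without control replicate 3. Over all genes, 17.2% were higher and 15.2% lower. The median of the 13 members was 0.13 without that library and 0.24 with it. RRP8 (ENSG00000132275, GRCh38 chromosome 11, 6595075 to 6603620) methylates an adenine base of the large subunit ribosomal RNA. It had 310, 296 and 761 normalized counts in the controls and 679, 643 and 719 with Caba-780. The treated libraries lay far above controls 1 and 2 and below control replicate 3. RRP8 rose by 1.16 ± 0.15 without that library (limma adjusted p = 1.27e-06), a ratio of means of 2.24, against 0.72 ± 0.38 with it (adjusted p = 0.392).

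GNL2 (ENSG00000134697, GRCh38 chromosome 1, 37566816 to 37595935) is a nucleolar GTPase whose yeast counterpart acts in late nuclear steps of the large subunit. It had 1229, 1326 and 1807 normalized counts in the controls and 1821, 2083 and 2062 with Caba-780. The groups did not overlap, but control replicate 3 nearly reached the lowest treated library. GNL2 rose by 0.64 ± 0.14 without that library (limma adjusted p = 0.00085), and the change was 0.47 ± 0.20 with it (adjusted p = 0.305).

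NMD3 (ENSG00000169251, GRCh38 chromosome 3, 161104696 to 161253532) is the adaptor that carries the large subunit out of the nucleus. It had 811, 895 and 2192 normalized counts in the controls and 1045, 1485 and 1433 with Caba-780. Control replicate 3 was the highest library and controls 1 and 2 the lowest. NMD3 rose by 0.61 ± 0.16 without control replicate 3 (limma adjusted p = 0.00356), against 0.16 ± 0.41 with it (adjusted p = 0.851). GNL3, nucleostemin, had 1466, 1731 and 1225 in the controls and 1883, 2137 and 2276 with Caba-780, with no overlap. It rose by 0.39 ± 0.14 without control replicate 3 (adjusted p = 0.0333), against 0.52 ± 0.19 with it (adjusted p = 0.254). RRS1, which brings a small ribonucleoprotein into the large subunit particle, had 643, 616 and 219 in the controls and 444, 444 and 525 with Caba-780, between control replicate 3 and the other controls. It fell by 0.42 ± 0.15 on the log2 scale without that library (adjusted p = 0.0355), and the change with it was 0.09 ± 0.43 (adjusted p = 0.929). The complex of PES1, BOP1 and WDR12, which acts in cutting the precursor, changed by 0.01, -0.35 and -0.30, and none of the 3 passed.

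Late maturation of the small subunit held the member with the largest log2 change of the 47. Of its 5 members, 2 were higher and none lower without control replicate 3, against 17.2% and 15.2% of all genes, with a median of 0.38 against 0.48 with that library. All 5 had treated libraries wholly above all 3 controls, which 17.9% of all genes had. RRP12 (ENSG00000052749, GRCh38 chromosome 10, 97356358 to 97426076) is a repeat protein known from yeast for the export of both subunits. It had 1068, 877 and 1080 normalized counts in the controls, 1008 ± 114 (mean ± SD, n = 3), and 2865, 2564 and 3017 with Caba-780, 2815 ± 231 (n = 3). The ratio of means was 2.79, and the groups were widely separated with control replicate 3 at the level of its group. RRP12 rose in both fits, by 1.48 ± 0.17 with all libraries (limma adjusted p = 0.0296) and by 1.54 ± 0.14 without control replicate 3 (adjusted p = 2.47e-09). The call with all libraries was lost when any single library other than control replicate 3 was left out (adjusted p from 0.1 without control replicate 1 to 0.299 without Caba-780 replicate 1). Those fits called at most 1 gene in the whole table, and the log2 change of RRP12 stayed between 1.39 and 1.55 in them. The authors' deposited table gives RRP12 an adjusted p of 3.48e-08.

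TSR1 (ENSG00000167721, GRCh38 chromosome 17, 2322503 to 2337507), a GTPase-like factor of the late small subunit particle, had 1692, 1462 and 1821 normalized counts in the controls and 1953, 2093 and 2099 with Caba-780. The groups did not overlap and were close. TSR1 rose by 0.38 ± 0.14 without control replicate 3 (limma adjusted p = 0.0341), and the change was 0.31 ± 0.16 with it (adjusted p = 0.388). Of its exon bases, 20.7% overlap SRR. NOB1, the nuclease that makes the final cut of the small subunit RNA, BYSL and LTV1 changed by 0.23, 0.22 and 0.41, and none passed. LTV1 shares 27.7% of its exon bases with AL049844.3 on the same strand, and NOB1 shares 20.2% with an antisense gene, so both levels are uncertain.

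**Figure D5:**
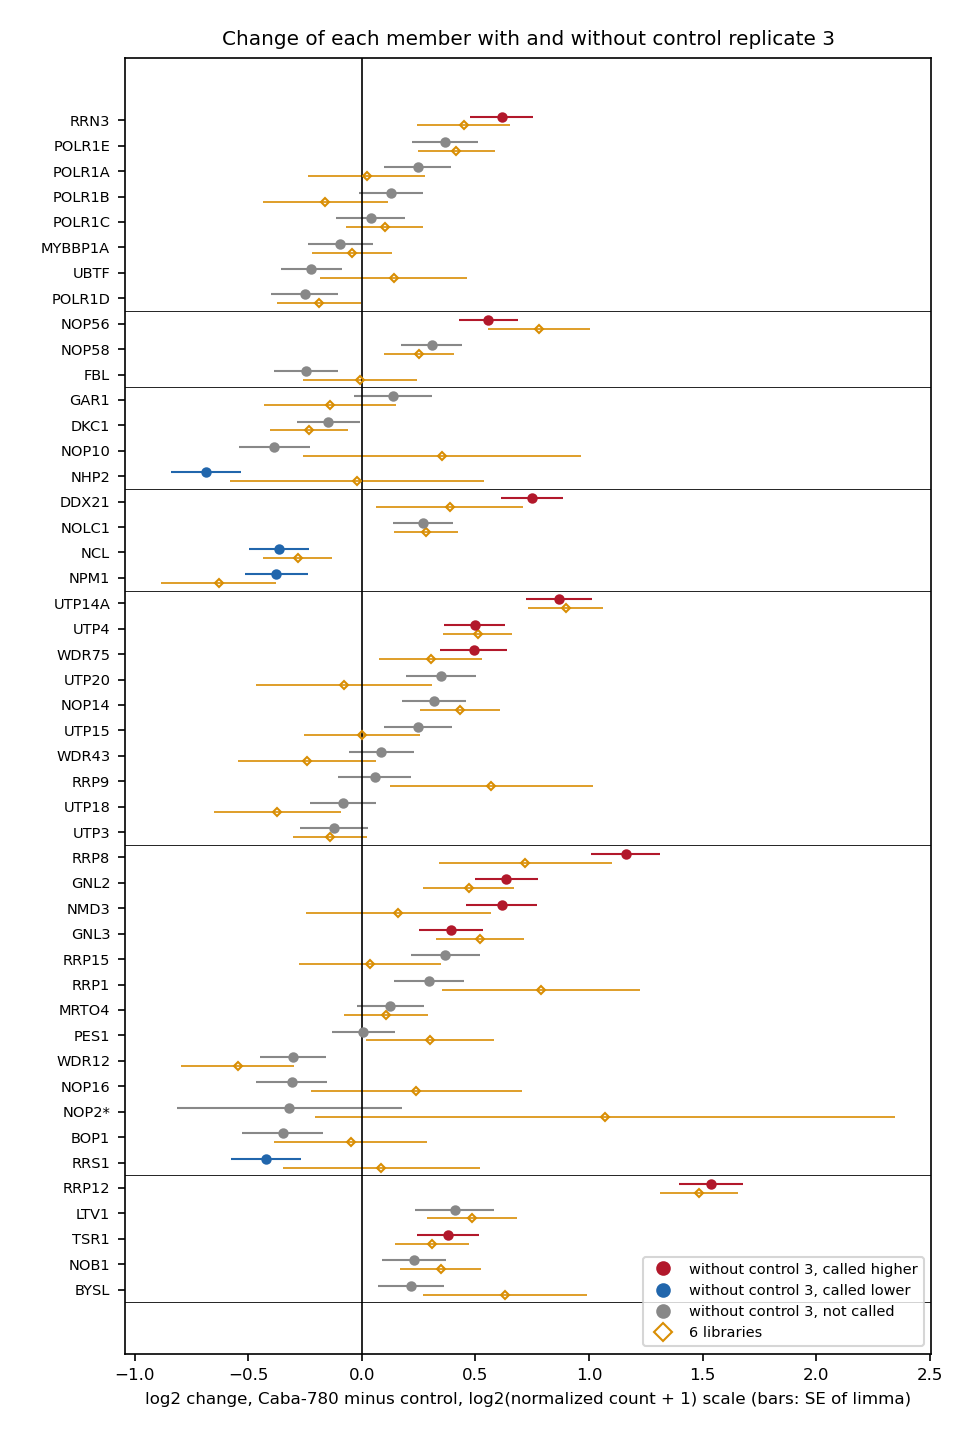
Log2 change with its standard error (horizontal axis) for each of the 47 members by role, with all 6 libraries and without control replicate 3. The asterisk marks NOP2, whose level is uncertain. Standard errors without control replicate 3 are smaller in all 47 members, and RRP12 has the largest change in both fits.

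The further genes of ribosome biogenesis were 127 by name, of which 126 were tested. Without control replicate 3, 31 (24.6%) were higher and 6 (4.76%) lower, with a median log2 change of 0.14, against the same background of 17.2% and 15.2%. Further factors of the small subunit particles were higher in 13 of 40 and lower in 1, those of the large subunit in 13 of 44 with none lower, polymerase I factors in 3 of 18 with 3 lower, and exosome and snoRNP assembly factors in 2 of 24 with 2 lower. With all 6 libraries, TAF1D was higher and none was lower. TAF1D, a subunit of the polymerase I promoter factor, had 1067, 1064 and 760 normalized counts in the controls and 2332, 2884 and 2674 with Caba-780. It rose by 1.46 ± 0.21 with all libraries (limma adjusted p = 0.0409) and by 1.30 ± 0.14 without control replicate 3 (adjusted p = 4.37e-08). Its call with all libraries was lost without any single other library (adjusted p from 0.124 without control replicate 1 to 0.299 without Caba-780 replicate 1), without the trend and robust options (0.0604) and with a replicate block (0.277). The block and the fits without a single other library called at most 1 gene in the whole table, and the log2 change of TAF1D stayed between 1.39 and 1.54 in them. RIOK3, a kinase of the late small subunit particle, had 795, 904 and 1704 in the controls and 2028, 2364 and 2326 with Caba-780, wholly above. It rose by 1.40 ± 0.14 without control replicate 3 (adjusted p = 1.42e-08), and the change was 1.06 ± 0.31 with it (adjusted p = 0.182). NOC3L, a factor of the large subunit particle, had 604, 756 and 1995 in the controls and 1396, 1719 and 1684 with Caba-780, with control replicate 3 the highest library. It rose by 1.24 ± 0.15 without that library (adjusted p = 3.86e-07), against 0.72 ± 0.45 with it (adjusted p = 0.462). The 3 lower polymerase factors were POLR2E, POLR2F and POLR2L, subunits shared by the nuclear RNA polymerases. They changed by -0.70, -0.60 and -0.76 without control replicate 3 (limma adjusted p = 0.000377, 0.00443 and 0.000387). With all 6 libraries the changes were 0.00466, -0.00812 and 0.23 (adjusted p = 0.998, 0.995 and 0.892). In all 3, control replicate 3 lay far below every other library, as in NHP2: POLR2E, for example, had 4623, 5165 and 1131 in the controls and 3378, 2585 and 3124 with Caba-780. POLR2L shares 22.5% of its exon bases with CD151 on the opposite strand.

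The genes of cytosolic ribosomal proteins moved the other way from the median of the members. Of 77, none was higher and 50 (64.9%) were lower without control replicate 3, against 17.2% and 15.2% of all genes, with a median of -0.46. With all 6 libraries none was called and the median was -0.38. Of the 77, 21 (27.3%) had an unadjusted limma p under 0.05 there, against 17.0% of all genes. Whether gene length bears on these changes was not tested. MYC, the transcription factor known to bind E-boxes of ribosome biogenesis genes, had 5063, 5523 and 2709 normalized counts in the controls and 2129, 1805 and 1847 with Caba-780. Its treated libraries were below every control, and control replicate 3 was the lowest control. MYC fell by 1.46 ± 0.14 on the log2 scale without that library (limma adjusted p = 2.85e-09), and the change with it was -1.14 ± 0.30 (adjusted p = 0.148). CDKN1A, the cell cycle inhibitor p21, had 4136, 4432 and 1483 in the controls and 6791, 5592 and 6589 with Caba-780, wholly above. It rose by 0.56 ± 0.14 without control replicate 3 (adjusted p = 0.00241), and the change with it was 1.07 ± 0.43 (adjusted p = 0.281). RPL5, RPL11 and RPL23, ribosomal proteins known to bind the p53 regulator MDM2, fell by 0.45, 0.46 and 0.59 on the log2 scale without control replicate 3 (limma adjusted p = 0.014, 0.0109 and 0.00214). With all 6 libraries the changes were -0.50, -0.09 and -0.90 (adjusted p = 0.208, 0.895 and 0.219). MDM2, MTOR and RPTOR were not called in either fit. Whether the levels of MYC bear on the members was not tested.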

How the data were processed

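The authors deposited one table of counts divided by a size factor per library (a signal, not whole counts), with their group means, log2 fold changes and p-values. The submitters' processing notes name DESeq2 1.20.0, featureCounts 1.5.0-p3, HISAT2 2.0.5, fastp and build hg38. Gene positions equalled GENCODE release 29 in all 23619 rows. Whole reads were recovered from the steps of the values (100% of values whole within 1e-06 reads). On them edgeR called 99 genes higher and 34 lower with 6 libraries, and 2395 and 2042 without control replicate 3. RPKM was computed from them over the deposited gene length. The main test was limma 3.58.1 (R 4.3.3; trend and robust) on log2(value + 1), which understates changes of low genes, over genes that reached 10 normalized counts in 3 or more libraries, two-sided, adjusted p under 0.05. Alternatives were other scalings, filters and pseudocounts, voom, edgeR 4.0.16, DESeq2 1.42.0, a replicate block and each library left out. Scripts were tested on simulated data. Members and lists were chosen with earlier results of these data known. The genes given in full were members called with 6 libraries, those with the lowest p in each role without control replicate 3, those with the highest and lowest levels, the leading further genes and the called regulators. Other genes named were picked after their values were seen.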

Additional observations from a re-analysis of the deposited data

How the results depend on the processing

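Results were recomputed under other scalings, filters, pseudocounts and tests. With all 6 libraries, the count of members higher was 2 under library totals, 4 with DESeq2 and 0 with the replicate block, and 0 to 12 when a library was left out, while the count lower was 0 to 4. The whole table moved with them: the block and the fits without any library other than control replicate 3 called at most 1 gene in all, and the count of 12 came with 2359 genes called higher. The further genes higher were 2 under library totals, 0 without the trend and robust options, 9 with DESeq2, 0 with the block and 0 to 31 with a library left out, and the lower 0 to 6. The members' median of 0.24 was 0.37 under library totals, 0.11 with edgeR and 0.0834 with DESeq2. The median of all genes moved as well, from 0.10 to 0.23, 0.0146 and -0.0143 in the same order. Without control replicate 3, members higher were 19 under library totals and 7 without the trend and robust options, and members lower were 1 under each, or 1 to 4 with a further library left out. Further genes lower were 12 under upper-quartile scaling, 2 without the trend and robust options and 3 to 10 with a library left out, and further genes higher 16 to 34. The members' median of 0.22 was 0.32 under library totals, and the median of all genes moved with it from -0.02 to 0.08. The cause was not tested. Fits with a lone control assume that it varies like the other group.

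Calls without control replicate 3 held under every setting for RRN3, NOP56, NHP2, DDX21, UTP14A, RRP8, GNL2 and RRP12. NMD3 lost its call under 1 setting, UTP4 under 2, WDR75 under 3, GNL3 and RRS1 under 6, NCL and TSR1 under 7 and NPM1 under 8. Calls were gained under at least 1 setting by POLR1E, NOP58, NOP10, NOLC1, UTP20, NOP14, BOP1, WDR12, RRP1, RRP15 and LTV1.

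Of the genes given in full, these changed sign from the fit with all 6 libraries: POLR1C (-0.00234 under upper-quartile scaling), NHP2 (0.11 under library totals, 0.0209 under TMM, -0.69 to 0.34 with a library left out), NOP10 (-0.39 to 0.84), NOP2 (-0.32 to 1.92) and NMD3 (-0.10 to 0.61). POLR2E was -0.10 under upper-quartile scaling, -0.25 with edgeR, -0.27 with DESeq2 and -0.70 to 0.40 with a library left out. POLR2F was 0.12 under library totals, 0.0335 under TMM and -0.60 to 0.30. POLR2L was -0.24 with edgeR, -0.26 with DESeq2 and -0.76 to 0.80. RPL11 was 0.0397 under library totals and -0.46 to 0.16. Leaving out control replicate 3 also turned POLR1B (-0.16 to 0.13), UBTF (0.14 to -0.22), GAR1 (-0.14 to 0.14), UTP20 (-0.08 to 0.35), WDR43 (-0.24 to 0.09), NOP16 (0.24 to -0.31) and RRS1 (0.09 to -0.42), so that with NOP10 and NOP2 9 members took another sign. Without control replicate 3, POLR1C was -0.00324 under upper-quartile scaling and -0.0330 to 0.11 with a further library left out.

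The replicate block matched libraries by number, and the sample titles name no pairs. Deviations of same-numbered libraries from their group means correlated at 0.30, -0.33 and -0.10. Those of Caba-780 replicate 2 correlated at -0.30 with control replicate 1 and at 0.34 with control replicate 3. The control means include the unlike control replicate 3, so these values cannot decide whether the libraries were paired. With the block the call of RRP12 in all 6 libraries was lost (limma adjusted p = 0.273). Without control replicate 3 the block gave 10 members higher and 3 lower, and 26 and 8 further genes, against 15.5% and 12.9% of all genes. Depth limits low members such as NOP2.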
